A study of Mus musculus with 10 samples.

Results

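The interferon regulatory factors (IRFs) are a family of transcription factors, and 8 of their genes were examined here: Irf1, Irf2, Irf3, Irf4, Irf5, Irf7, Irf8 and Irf9. They were taken by name, and each was read from the probe set that carried exactly 1 gene symbol and had the highest mean over the 10 arrays. Such a probe set existed for 7 of the 8 genes, out of 22180 genes on the array and 13371 genes that were tested. The only probe set listing Irf5 also lists a second gene, so Irf5 has no value of its own here. The 4 groups were splenic CD11c+ dendritic cells (DCs) of C3ar1-/-C5ar1-/- mice after CpG (DKO CpG, 3 arrays), of WT mice after CpG (WT CpG, 3 arrays), of C3ar1-/-C5ar1-/- mice given vehicle (DKO unstimulated, 2 arrays) and of WT mice given vehicle (WT unstimulated, 2 arrays). C3ar1 and C5ar1 encode the receptors for the complement fragments C3a and C5a, and DKO stands for the mice that lack both. CpG is unmethylated DNA sensed by the receptor Tlr9, and 100 µg was injected 4 h before the DCs were isolated with magnetic beads. The sources used here do not give the age or sex of the mice, the route or class of the CpG, or whether each array came from a separate animal. The p-values therefore measure only the spread between these samples, which may be technical. All values below are log2 intensities of the Mouse Gene 2.0 ST array, normalised by the authors, and every difference between groups is a log2 difference, so that 1 stands for a 2-fold change.

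IRFs bind DNA at repeats of the motif GAAA and share a conserved DNA-binding domain. In DCs, CpG engages Tlr9, which signals through the adaptor MyD88 to IRF7 and IRF5, and the interferon that follows acts on its receptor to assemble ISGF3, a complex with STAT2 and IRF9 that switches on antiviral genes. IRF1 and IRF2 bind the same sites, where IRF1 mostly activates and IRF2 often opposes it. IRF8 and IRF4 act as lineage factors: IRF8 is needed for the cDC1 subset of conventional DCs and for plasmacytoid DCs, and IRF4 serves cDC2, activated B cells and plasma cells.

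The stretches just before the start sites of Irf1, Irf2 and Irf8 are shown because they are the ones in which a script found letters of a motif tied to interferon or NF-kB signalling. They come from RefSeq (GRCm38.p6) and run 5′ to 3′ over the 250 bases before the first annotated start of each gene. All 3 lie on the plus strand, at chr11:53769764-53770013 for Irf1, chr8:46739495-46739744 for Irf2 and chr8:120736108-120736357 for Irf8. Capitals mark the motif matches.
Irf1: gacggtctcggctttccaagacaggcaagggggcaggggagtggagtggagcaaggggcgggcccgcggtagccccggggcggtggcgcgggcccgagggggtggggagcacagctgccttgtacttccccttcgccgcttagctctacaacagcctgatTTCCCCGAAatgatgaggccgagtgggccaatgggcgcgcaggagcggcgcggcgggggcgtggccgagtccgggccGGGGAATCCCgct
Irf2: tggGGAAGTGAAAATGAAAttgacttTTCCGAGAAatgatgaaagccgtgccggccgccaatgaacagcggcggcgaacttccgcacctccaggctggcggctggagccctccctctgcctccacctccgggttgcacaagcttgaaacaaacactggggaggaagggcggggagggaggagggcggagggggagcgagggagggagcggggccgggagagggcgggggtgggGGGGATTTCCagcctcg
Irf8: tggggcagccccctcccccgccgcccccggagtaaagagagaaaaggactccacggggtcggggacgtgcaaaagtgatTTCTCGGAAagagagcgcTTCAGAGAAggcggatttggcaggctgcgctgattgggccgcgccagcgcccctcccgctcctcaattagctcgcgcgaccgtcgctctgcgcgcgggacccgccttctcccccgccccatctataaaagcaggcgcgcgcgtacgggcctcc
In Irf1, TTCCCCGAA, 90 to 82 bases before the start, matches the GAS element (TTCNNNGAA) of interferon-gamma responses, and GGGGAATCCC, 13 to 4 bases before it, matches the NF-kB consensus. In Irf2, an ISRE-like run (GAAA and GAAA with any 2 bases between them), the type of site that ISGF3 and IRFs bind, lies 241 to 232 bases before the start and overlaps an ETS-IRF composite (GGAA and GAAA with any 2 bases between them), at 247 to 238 bases, of the kind that PU.1 binds with IRF4 or IRF8. Irf2 also has a GAS match 224 to 216 bases and an NF-kB match 17 to 8 bases before the start. In Irf8, GAS matches lie 171 to 163 and 153 to 145 bases before the start. No match was found in the window of Irf3, Irf4, Irf5, Irf7 or Irf9, which says only that these letters are not in that window. The window of Irf5, chr6:29526375-29526624, lies inside the gene, which starts at 29526130. The window of Irf7 on the minus strand, chr7:141266425-141266674, reaches into the gene, which runs to 141266499. For these genes the stretch before the outermost start was thus not, or only partly, searched. All 8 genes matched the RefSeq table, with 11 windows. Both strands were searched, and of 32851 windows of the same length over 27025 genes, 2.98% held the ISRE-like run, 2.3% the composite, 7.02% GAS and 7.25% NF-kB.

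**Figure D1:**
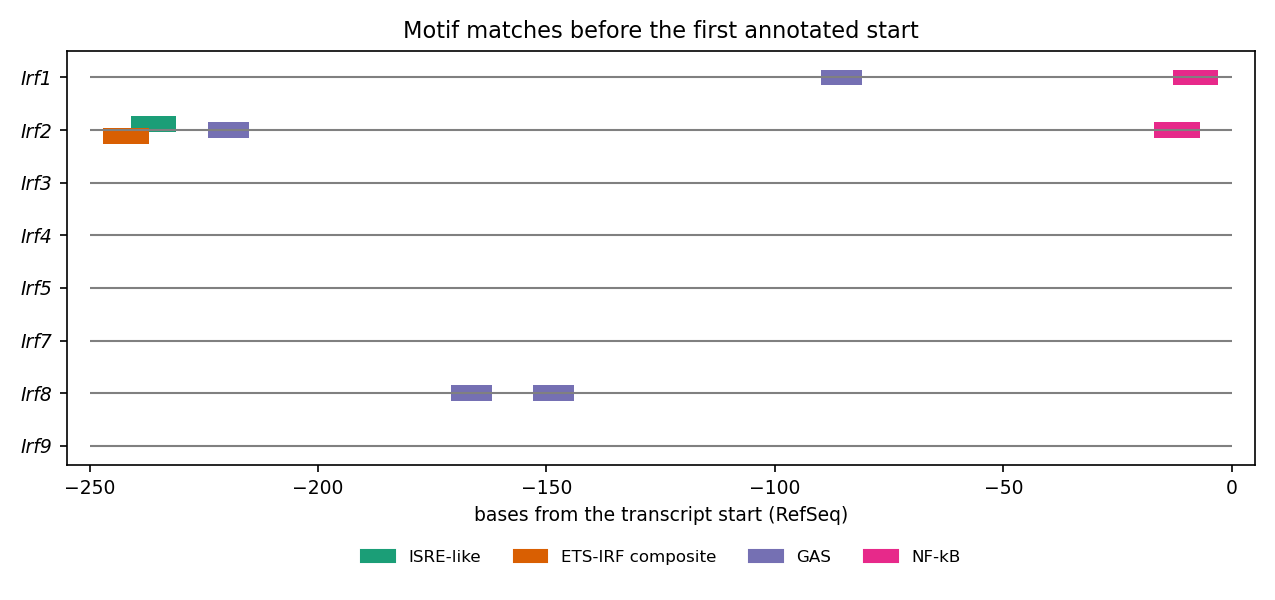
Motif matches in the 250 bases before the start used for each of the 8 IRF genes. The window of Irf5 lies inside the gene and that of Irf7 reaches into it. Each gene has 1 row, with distance from the start in bases on the x axis and a mark for each match. Only Irf1, Irf2 and Irf8 carry marks, and in Irf2 the ISRE-like run and the ETS-IRF composite overlap.

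Some facts of the whole series bear on these comparisons. C3ar1 was 5.34 to 5.61 on the DKO CpG arrays against 6.14 to 6.59 on the WT CpG arrays, and C5ar1 was 4.72 to 4.99 against 5.51 to 7.32. Both were also lower on each DKO unstimulated array than on each WT unstimulated array, but DKO minus WT was not called for either gene after CpG (adjusted p = 0.0611 for C3ar1 and 0.0732 for C5ar1, limma). The sources used here do not say where these probe sets lie relative to the deleted parts, so the values are no check of the genotype. Signal of Y-linked genes was high on 3 arrays, DKO unstimulated 1, DKO CpG 1 and DKO CpG 2, and low on the other 7, which include all the WT arrays. The X-linked gene Xist ran the other way, at 4.32 to 4.91 on these 3 arrays and 10.41 to 10.85 on the other 7. These 3 are also all the DKO arrays whose sample titles are numbered under 20. The labels mention a first batch without saying which samples it held, so title numbers of 20 and over (DKO CpG 3, WT CpG 3 and DKO unstimulated 2) were used as a stand-in for a second one. Every DKO value given below for title numbers under 20 without stimulation, or against it, therefore rests on DKO unstimulated 1 alone. Of the DC markers, Itgax, which encodes CD11c, was at 10.72 to 11.89 over the arrays, and 7 of 7 measured core genes of conventional DCs were above the array median in every group. The mean of 10 neutrophil markers was 5.55 to 7.43 on DKO CpG arrays, 7.41 to 9.35 on WT CpG arrays, 5.67 to 6.20 on DKO unstimulated arrays and 7.41 to 8.10 on WT unstimulated arrays. The mean of 11 splenic macrophage markers was 8.72 to 10.65 on DKO CpG arrays, 10.32 to 10.50 on WT CpG arrays, 8.99 to 10.53 on DKO unstimulated arrays and 10.67 to 10.75 on WT unstimulated arrays. The low values were those of DKO CpG 3 and DKO unstimulated 2. The median of these 11 genes, each relative to its mean over the 10 arrays, was -1.39 and -1.21 there. On the other arrays it was 0.046 to 0.58. DKO CpG 3 and DKO unstimulated 2 are also the only DKO arrays with low Y-linked signal. In these bulk samples, fewer cells of a type and less RNA per cell cannot be told apart, and the part of sex, title series and other cell types in the IRF results was not tested beyond the values given below.

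Irf7, Irf1 and Irf9 were higher and Irf8 was lower 4 h after CpG in WT DCs, and Irf8 and Irf4 were lower and Irf1 was higher after CpG in DKO DCs. At an adjusted p under 0.05 in limma, 4 of the 7 measured members were called for CpG in WT (3 higher and 1 lower), where 21.6% of all tested genes were called, 8.24% higher and 13.3% lower. For CpG in DKO, 3 of the 7 were called (1 higher and 2 lower), where 10.3% of all tested genes were called, 4.54% higher and 5.76% lower. All 7 were above the array median on all 10 arrays.

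**Figure D2:**
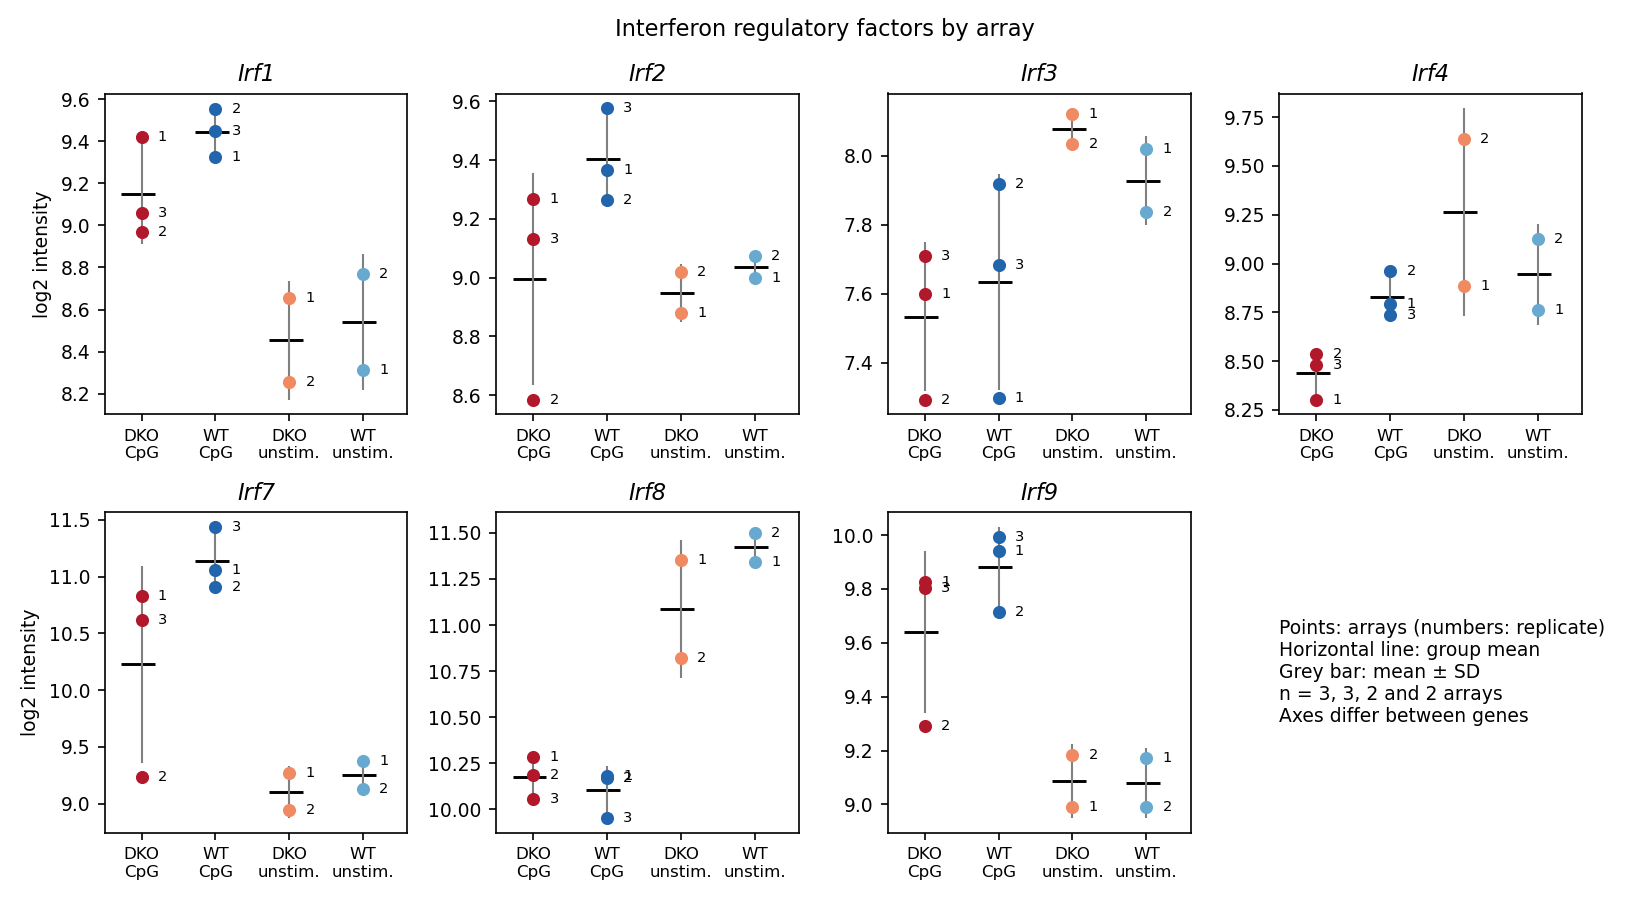
Log2 intensity (y axis, a separate scale for each gene) of the 7 measured IRF genes on each array, with points numbered by replicate, a line at the group mean and a grey bar for the mean ± SD, for the 3 DKO CpG, 3 WT CpG, 2 DKO unstimulated and 2 WT unstimulated arrays. Irf8 on the CpG arrays lies between 9.95 and 10.28 and on the unstimulated arrays between 10.82 and 11.50, while Irf7 on DKO CpG 2 lies at 9.24, far below the other DKO CpG arrays.

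Irf7, the interferon-inducible factor that drives much of the interferon-alpha output, had the largest CpG difference of the 7 measured members in WT DCs. It measured 10.83, 9.24 and 10.62 on DKO CpG arrays 1 to 3, against 9.27 and 8.94 on the DKO unstimulated arrays. WT DCs had 11.06, 10.91 and 11.44 after CpG, against 9.38 and 9.13 without stimulation. The WT groups stood well apart, while DKO CpG 2 lay among the unstimulated arrays and the other DKO CpG arrays stood above them. CpG raised Irf7 by 1.88 ± 0.38 in WT DCs (standard error, here and for every difference below; adjusted p = 0.00611, limma), a 3.69-fold change, which was 1.76 and not called without WT unstimulated 2 (adjusted p = 0.0624). In DKO DCs the difference was 1.12 ± 0.38 and was not called (adjusted p = 0.0928). That outcome rested on DKO CpG 2: without this array the difference was 1.62 and was called (adjusted p = 0.00216, limma). Without the 3 arrays with Y-linked signal it was 1.68, from DKO CpG 3 against DKO unstimulated 2 alone. Among the arrays with title numbers under 20 it was 0.77 in DKO DCs and 1.73 in WT DCs.

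Irf9 is the DNA-binding subunit of ISGF3. Its values were 9.83, 9.29 and 9.80 on the DKO CpG arrays, against 8.99 and 9.18 on the DKO unstimulated arrays. In WT DCs they were 9.94, 9.71 and 9.99 after CpG, against 9.17 and 8.99 without stimulation. The CpG arrays lay above the unstimulated arrays in both genotypes, with DKO CpG 2 again the lowest of its group. Irf9 rose by 0.80 ± 0.17 in WT DCs (adjusted p = 0.00833, limma), a call that was lost without WT unstimulated 2 (0.71, adjusted p = 0.0839). Its difference in DKO DCs, 0.55 ± 0.17, was not called (adjusted p = 0.0723), but was called at 0.73 without DKO CpG 2 (adjusted p = 0.0192) and at 0.59 with the title series as a block (adjusted p = 0.0375). Within the arrays with title numbers under 20 the differences were 0.57 in DKO and 0.75 in WT DCs.

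Irf3 encodes the constitutively made factor that the kinase TBK1 activates downstream of RNA and DNA sensors and of Tlr3. It measured 7.60, 7.29 and 7.71 on the DKO CpG arrays, against 8.12 and 8.03 on the DKO unstimulated arrays. WT DCs had 7.30, 7.92 and 7.68 after CpG, against 8.02 and 7.84 without stimulation. The DKO groups did not overlap and the WT groups did. Neither difference was called, at -0.54 ± 0.19 in DKO (adjusted p = 0.0920) and -0.29 ± 0.19 in WT DCs (adjusted p = 0.312, limma).

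Irf1, a rapidly inducible activator, and Irf2, its constitutive counterpart, are the pair whose promoter windows above both hold a GAS and an NF-kB match. Irf1 measured 9.42, 8.97 and 9.06 on the DKO CpG arrays, against 8.65 and 8.25 on the DKO unstimulated arrays. WT DCs gave 9.33, 9.55 and 9.45 after CpG, against 8.31 and 8.77 without stimulation. All CpG arrays were above all unstimulated arrays. Irf1 rose by 0.70 ± 0.19 in DKO DCs (adjusted p = 0.0416) and by 0.90 ± 0.19 in WT DCs (adjusted p = 0.00690, limma). The call in DKO DCs sat near the threshold and was lost when any 1 array was left out other than DKO CpG 3 and the WT unstimulated arrays (0.50 without DKO unstimulated 2, adjusted p = 0.266), and among title numbers under 20 (0.54, adjusted p = 0.217). The call in WT DCs was lost without WT unstimulated 1 (0.67, adjusted p = 0.0898).

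Irf2 changed less. It measured 9.27, 8.58 and 9.13 on the DKO CpG arrays, against 8.88 and 9.02 on the DKO unstimulated arrays. WT DCs gave 9.37, 9.27 and 9.58 after CpG, against 8.998 and 9.07 without stimulation. The WT groups did not overlap, and in DKO DCs the unstimulated values lay within the range after CpG. The CpG difference was 0.045 ± 0.19 in DKO (adjusted p = 0.918) and 0.37 ± 0.19 in WT DCs (adjusted p = 0.210, limma), and neither was called.

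Irf8, the lineage factor of cDC1 and plasmacytoid DCs, was the member with the smallest p-value in both CpG comparisons. It measured 10.28, 10.19 and 10.05 on the DKO CpG arrays, against 11.35 and 10.82 on the DKO unstimulated arrays. WT DCs gave 10.18, 10.17 and 9.95 after CpG, against 11.34 and 11.50 without stimulation. All 6 CpG arrays lay below all 4 unstimulated arrays, and the DKO and WT arrays after CpG covered nearly the same range. Irf8 fell by 0.91 ± 0.16 in DKO DCs (adjusted p = 0.00751, 336th of 13371 genes by p) and by 1.32 ± 0.16 in WT DCs (adjusted p = 0.000404, 258th, limma). Within the arrays with title numbers under 20 the differences were -1.12 in DKO and -1.24 in WT DCs. Without the 3 arrays with Y-linked signal, the value in DKO DCs was -0.77, from DKO CpG 3 against DKO unstimulated 2 alone. With only the DKO arrays in the fit, the difference in DKO DCs was no longer called (adjusted p = 0.0543, limma). A second probe set of Irf8, with a mean of 6.29 over all arrays, gave smaller differences in the same direction, -0.39 in DKO and -0.73 in WT DCs.

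The means of marker lists of conventional DCs and B cells were lower on CpG arrays, as Irf8 was, and those of plasmacytoid DCs overlapped between the groups. The mean of 9 measured cDC1 markers was 8.70 to 8.84 on DKO CpG arrays, against 9.33 to 9.74 on DKO unstimulated arrays, and 8.26 to 8.58 on WT CpG arrays, against 9.70 to 9.73 on WT unstimulated arrays. Of these 9 genes, 4 were lower and none was higher after CpG in DKO DCs, and 6 were lower and 1 was higher in WT DCs. The share called lower over all tested genes was 5.76% in DKO and 13.3% in WT DCs. The chemokine receptor Xcr1 was lower, at -1.71 in DKO and -2.54 in WT DCs, and Batf3, which works with IRF8 in cDC1, was the gene that was higher, by 0.61 in WT DCs. For 9 cDC2 markers the mean was 8.27 to 8.65 on DKO CpG arrays, against 8.77 to 8.80 on DKO unstimulated arrays, and 8.09 to 8.20 on WT CpG arrays, against 8.66 to 8.70 on WT unstimulated arrays. For 7 core genes of conventional DCs it was 10.31 to 10.50 on DKO CpG arrays, against 10.86 to 10.88 on DKO unstimulated arrays, and 10.07 to 10.24 on WT CpG arrays, against 10.69 to 10.81 on WT unstimulated arrays. The mean of 9 B cell markers was 6.22 to 6.80 on DKO CpG arrays, against 7.03 to 7.30 on DKO unstimulated arrays, and 6.49 to 6.55 on WT CpG arrays, against 7.21 to 7.27 on WT unstimulated arrays. The mean of 11 plasmacytoid DC markers was 7.47 to 7.73 (DKO CpG), 7.33 to 7.59 (WT CpG), 7.23 to 7.78 (DKO unstimulated) and 7.30 to 7.45 (WT unstimulated). By call, the lists differed. Of the 9 cDC2 markers, 1 was lower after CpG in DKO and 1 in WT DCs. Of the 7 core genes, 3 were lower in DKO and 5 in WT DCs, and of the 9 B cell markers 3 and 5. None of these genes was called higher. Of the 11 plasmacytoid DC markers, none was called in DKO, and 1 was higher and 1 lower in WT DCs. The part of these shifts in the results for Irf8 and Irf4 was not tested.

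Irf4, the relative of Irf8 that pairs with BATF and PU.1, was lower in DKO DCs after CpG. Its values were 8.30, 8.54 and 8.48 on the DKO CpG arrays, against 8.88 and 9.64 on the DKO unstimulated arrays. WT DCs gave 8.79, 8.96 and 8.73 after CpG, against 8.76 and 9.13 without stimulation. The DKO groups did not overlap, the WT groups did, and DKO unstimulated 2 held the highest value of all arrays. Irf4 fell by 0.82 ± 0.21 in DKO DCs (adjusted p = 0.0309), and in WT DCs its difference of -0.12 ± 0.21 was not called (adjusted p = 0.758, limma). The DKO value was -0.44 without DKO unstimulated 2 (adjusted p = 0.221), and -0.46 among title numbers under 20 (adjusted p = 0.190), neither of them called. The call was also lost without WT CpG 1 (adjusted p = 0.0511), DKO CpG 1 (0.0917) or DKO CpG 2 (0.0550). Without the 3 arrays with Y-linked signal the difference was -1.16, from DKO CpG 3 against DKO unstimulated 2 alone. These are also the arrays with low splenic macrophage markers. Whether Irf4 responded differently in the genotypes is given by the difference of the CpG effects, which was -0.71 ± 0.29 and was not called (unadjusted p = 0.0343, adjusted p = 0.850).

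**Figure D3:**
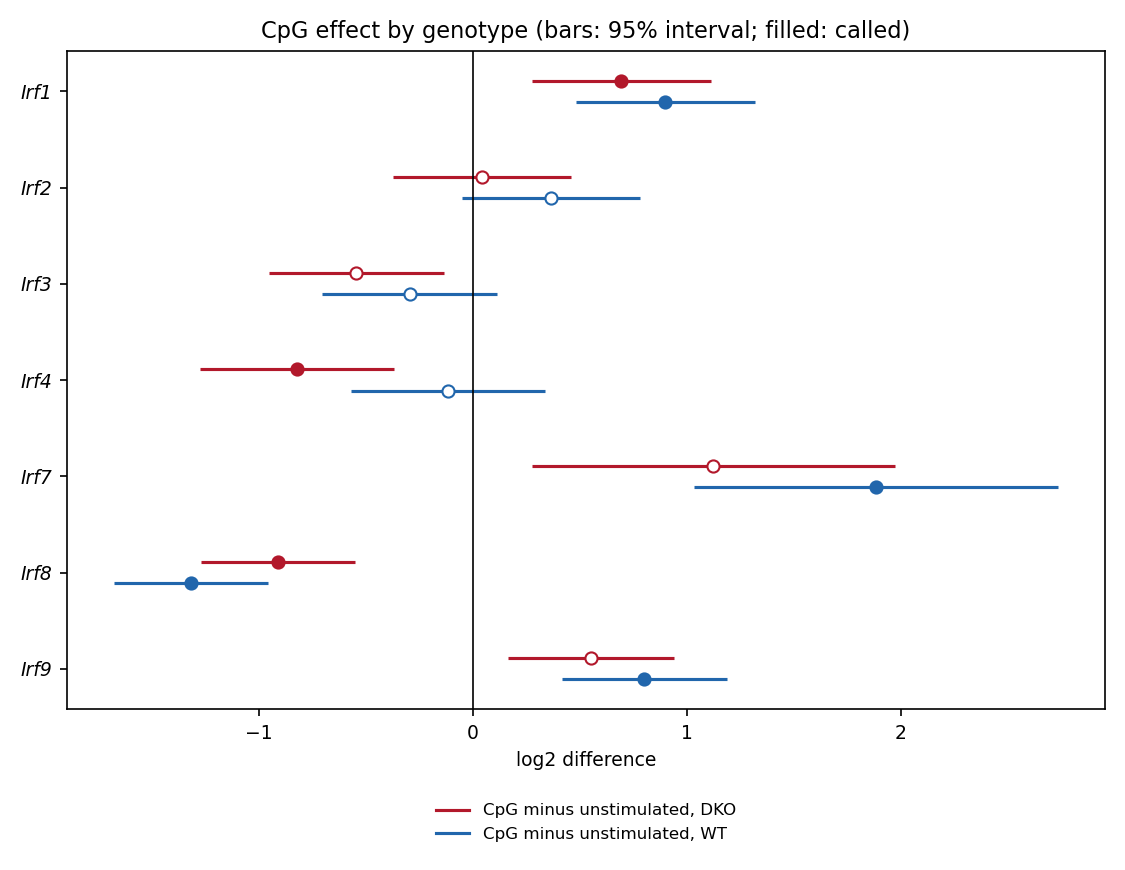
Log2 difference, CpG minus unstimulated, with its 95% interval from limma (x axis) for the 7 measured IRF genes, in DKO DCs (red, above) and WT DCs (blue, below), with filled points for an adjusted p under 0.05. Irf7, Irf1 and Irf9 lie right of 0 in both genotypes and Irf8 lies left of 0 in both, with Irf4 filled only in DKO DCs.

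For CpG in DKO, the groups did not overlap for 5 of the 7 members, with CpG on top for 2 of them and at the bottom for 3. Over all tested genes the share was 37.7%, 15.2% higher and 22.5% lower. For CpG in WT the count was also 5 of the 7, with CpG on top for 4 and at the bottom for 1, against 52.4% of all tested genes, 21.2% higher and 31.2% lower. Ordering the groups by their means, Irf1 and Irf9 had both CpG groups on top and Irf8 had both at the bottom, and in each of these 3 genes only the step between the CpG and the unstimulated groups was free of overlap. For Irf7 the order was WT CpG, DKO CpG, WT unstimulated and DKO unstimulated, and only WT CpG stood clear of its neighbour. For Irf4 the lowest group, DKO CpG, stood clear of the next, WT CpG. For Irf3 the highest group, DKO unstimulated, stood clear of WT unstimulated, and for Irf2 the highest, WT CpG, stood clear of WT unstimulated.

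No IRF gene was called between the genotypes. After CpG, 0 of the 7 members were called for DKO minus WT in limma, where 0.12% of all tested genes were called. Irf7 and Irf2, 2 of the 7, had an unadjusted p under 0.05, against 1918 of all 13371 tested genes. All DKO CpG arrays lay below all WT CpG arrays for Irf7 and Irf4, 2 of the 7 members. Over all tested genes the groups did not overlap for 19.2%, with DKO lower for 7.58%. Irf7 averaged 10.23 ± 0.87 in DKO CpG and 11.14 ± 0.27 in WT CpG DCs (SD, n = 3 each), a difference of -0.91 with a 95% interval of -1.67 to -0.15 (adjusted p = 0.265). Without DKO CpG 2 this difference was -0.41 (adjusted p = 0.474). Irf4 averaged 8.44 ± 0.12 in DKO CpG and 8.83 ± 0.12 in WT CpG DCs (SD, n = 3 each), a difference of -0.39 with an interval of -0.79 to 0.019 (adjusted p = 0.372). The interval for Irf8 was -0.25 to 0.39, the narrowest of the 7. Intervals were -0.67 to 0.081 for Irf1, -0.78 to -0.037 for Irf2, -0.47 to 0.27 for Irf3 and -0.59 to 0.10 for Irf9. Within the arrays with title numbers under 20, DKO minus WT after CpG was -0.95 for Irf7, -0.46 for Irf4 and 0.057 for Irf8, none of them called.

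Without stimulation, 0 of the 7 members were called for DKO minus WT in limma, where 0.00748% of all tested genes were called. None of the 7 had an unadjusted p under 0.05, against 619 of all 13371 tested genes. Irf3 was the only member whose groups did not overlap, with both DKO arrays above both WT arrays. Over all tested genes the groups did not overlap for 34.2%, with DKO higher for 18.3%. The differences ran from -0.33 for Irf8 (95% interval -0.73 to 0.060) to 0.32 for Irf4 (-0.18 to 0.82), each resting on 2 arrays per genotype. Irf7 differed by -0.15, with an interval of -1.08 to 0.78, which includes a 2-fold lower level.

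The CpG effect in DKO minus that in WT was called for 0 of the 7 members in limma, where 0.00748% of all tested genes were called. Irf4 alone of the 7 had an unadjusted p under 0.05, against 756 of all 13371 tested genes. The effect of CpG on Irf7 was smaller in DKO by 0.76 at the point estimate, with an interval of -1.96 to 0.44 for the difference, and without DKO CpG 2 that difference was -0.26. For Irf8 the difference was 0.41, with an interval of -0.10 to 0.92.

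**Figure D4:**
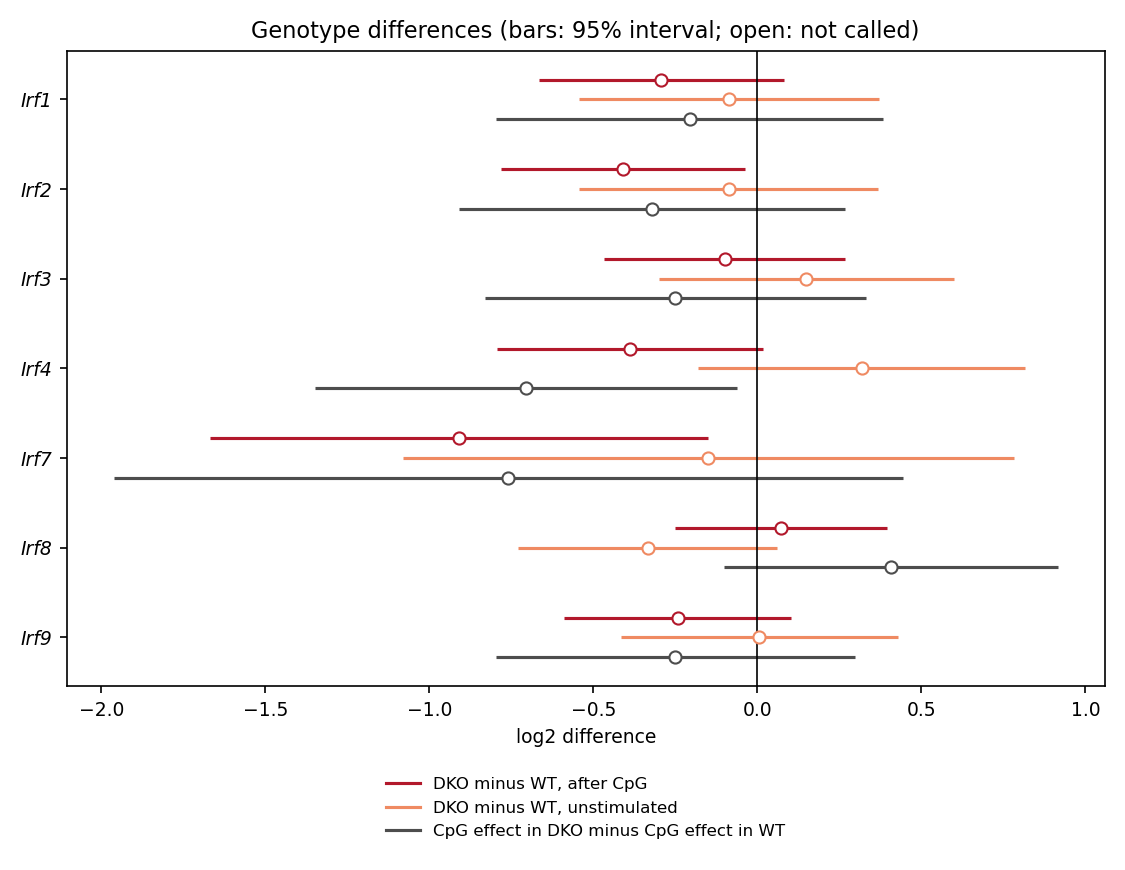
Log2 differences with 95% intervals from limma (x axis) for the 7 measured IRF genes: DKO minus WT after CpG, DKO minus WT without stimulation, and the CpG effect in DKO minus that in WT. All points are open, since none had an adjusted p under 0.05, and after CpG the intervals of Irf7 and Irf2 alone lie below 0.

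DKO CpG 2 was the lowest of the 3 DKO CpG arrays for 5 of the 7 members (71.4%), against 29.1% of all tested genes. The exceptions were Irf4, lowest on DKO CpG 1, and Irf8, lowest on DKO CpG 3. The same array was the lowest of the 3 for 16 of 16 tested target genes of IRF3, IRF7 and IRF9, such as Ifit1, Mx2 and Isg15, which restrict viruses. The median of these 16 genes, each taken relative to its mean over the 10 arrays, was 0.78, -0.28 and 0.72 on DKO CpG arrays 1 to 3, and 1.11, 0.85 and 1.49 on the WT CpG arrays. On the unstimulated arrays it was -1.40 and -1.27 for DKO and -0.78 and -1.19 for WT. DKO CpG 2 thus stood below every other CpG array and above every unstimulated array in this list. Among 5 target genes of IRF5 it was the lowest of the 3 for 0, and DKO CpG 3 was the lowest for 5. Over all tested genes, DKO CpG 3 was the lowest of the 3 for 36.8%. It was also the lowest for 11 of 11 splenic macrophage and 9 of 10 neutrophil markers, but for only 1 of 9 cDC1 and 1 of 9 B cell markers.

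**Figure D5:**
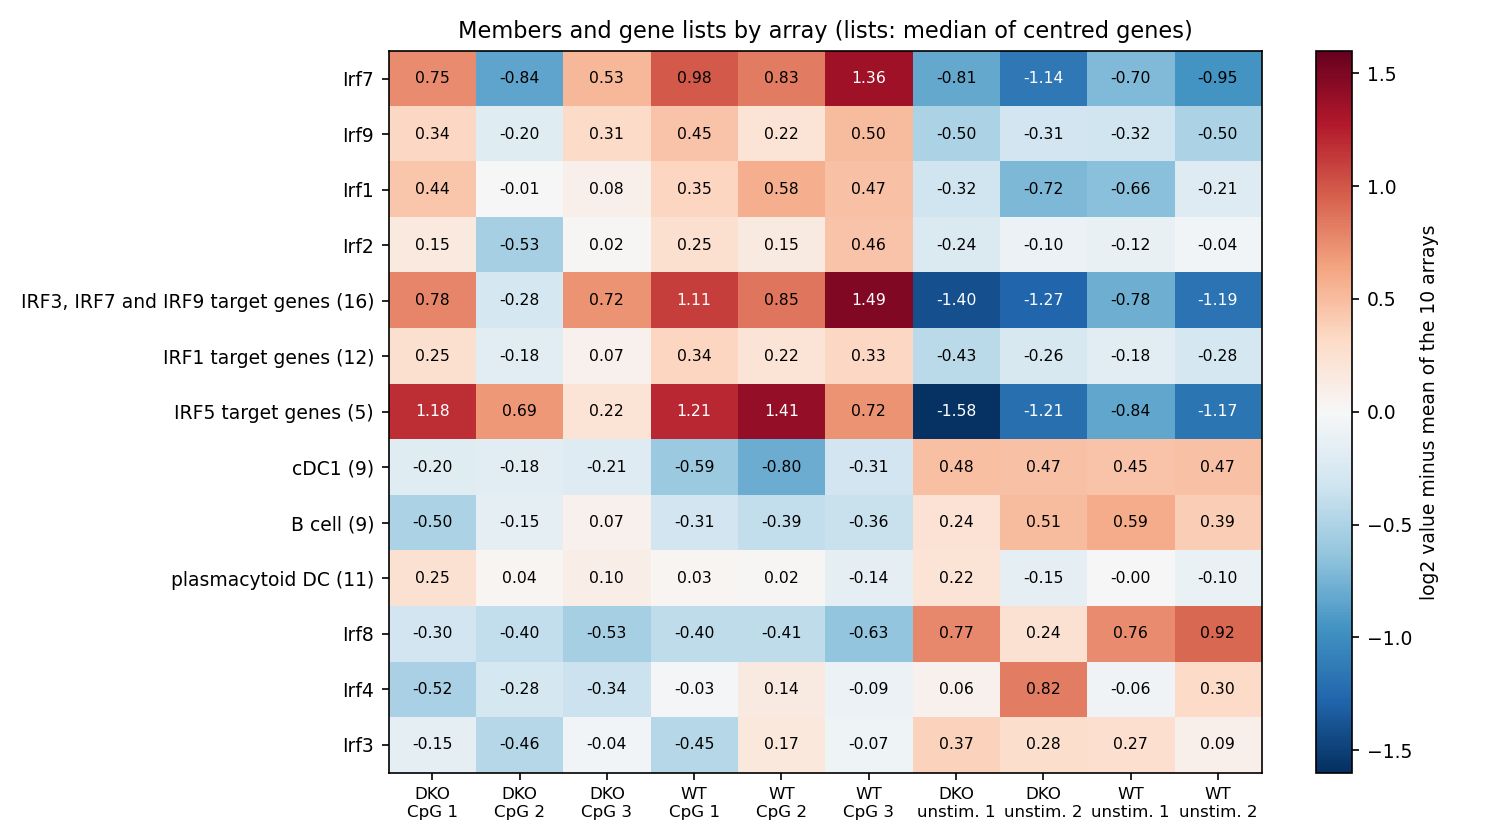
Log2 value minus the mean of the 10 arrays (colour) on each array (columns) for the IRF genes and for the median of target gene and cell type marker lists (rows), with the number of genes of a list in brackets. In the row of the IRF3, IRF7 and IRF9 targets, DKO CpG 2 is at -0.28 and the other CpG arrays are at 0.72 to 1.49.

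The IRF3, IRF7 and IRF9 targets were the pathway genes with the most calls. Of 16 tested genes, 15 were higher and none was lower after CpG in DKO DCs, with a median of 1.61, and 15 were higher and none lower in WT DCs, with a median of 2.18, against -0.037 in DKO and -0.039 in WT DCs over all tested genes. The share called higher over all tested genes was 4.54% in DKO and 8.24% in WT DCs. Ifit1 rose by 2.72 in DKO and by 3.47 in WT DCs, Isg15, a ubiquitin-like modifier, by 1.57 in DKO and by 2.24 in WT DCs, and Oasl1, which in mice limits the translation of Irf7 mRNA, by 2.71 in DKO and by 2.69 in WT DCs. The gene without a call in either genotype, named after its values were seen, was Ifit3, at 0.41 in DKO (adjusted p = 0.419) and 0.81 in WT DCs (adjusted p = 0.0668, limma). The count for CpG in DKO was 9 without DKO CpG 1, 4 without DKO unstimulated 1, 6 without DKO unstimulated 2, 8 among title numbers under 20 and 7 with only the arrays of that contrast in the fit. For DKO minus WT after CpG, 1918 of all 13371 tested genes had an unadjusted p under 0.05. Of the 16 targets, 0 were called in limma, 10 had such a p and 16 of 16 were negative. Their median difference was -0.69, against 0.015 over all tested genes, and -0.37 without DKO CpG 2. When DKO CpG 1 was left out, 1 of the 16 was called, lower in DKO, and leaving out any other single array gave 0. Without stimulation, DKO minus WT was negative for 14 of the 16 (median -0.19, against 0.0088 over all tested genes). The CpG effect in DKO minus that in WT was also negative for 14 (median -0.40, against 0.0155). In each of these comparisons 0 of the 16 were called in limma, where 0.00748% of all tested genes were. An unadjusted p under 0.05 was found for 0 of the 16 in each, against 619 and 756 of all 13371 tested genes.

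Target genes of IRF1 and IRF5 also had more rises than falls. Among 12 tested IRF1 targets, 2 were higher and 1 was lower after CpG in DKO DCs (median 0.37), and 6 were higher and 1 was lower in WT DCs (median 0.56). Over all tested genes, 4.54% were called higher and 5.76% lower in DKO, and 8.24% higher and 13.3% lower in WT DCs. Il27, a subunit of interleukin-27, rose by 2.29 in DKO and by 2.85 in WT DCs, and Gbp5, an interferon-inducible GTPase, rose by 2.03 in DKO and by 2.79 in WT DCs. Ciita, the master regulator of MHC class II genes, was lower in both, at -0.80 in DKO and -0.79 in WT DCs. Without DKO CpG 3 the DKO count was 5, and without WT unstimulated 1 or 2 the WT count was 4 or 3. Of 5 IRF5 targets, which encode inflammatory cytokines, 3 were higher after CpG in DKO DCs (median 2.14) and 4 in WT DCs (median 1.94). Il12a, called higher in WT DCs at 0.87, is counted in both the IRF1 and the IRF5 list. It was below the array median on every unstimulated array, so it entered the test through the groups where it is high. The call for Il12a thus supports nothing by itself. Il6 rose by 3.06 in DKO and by 3.09 in WT DCs, Il12b by 2.87 in DKO and by 2.60 in WT DCs, and Tnf by 2.14 in DKO and by 1.94 in WT DCs. For DKO minus WT after CpG, 0 of the 12 IRF1 targets and 0 of the 5 IRF5 targets were called in limma, with 4 and 1 at an unadjusted p under 0.05. Over all 13371 tested genes, 1918 had such a p. When DKO CpG 1 was left out, 3 IRF1 targets were called, all lower, and leaving out any other single array gave 0.

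Upstream of the IRFs, 21 of 25 listed signalling genes were tested. After CpG, 3 were higher and 2 lower in DKO DCs (median 0.16), and 7 were higher and 4 lower in WT DCs (median 0.20). The share called over all tested genes, in either direction, was 10.3% in DKO and 21.6% in WT DCs. Ikbke, the interferon-inducible kinase that phosphorylates IRF3 and IRF7, rose by 1.61 in DKO and by 2.52 in WT DCs, Myd88, the adaptor of Tlr9, by 0.78 in DKO and by 0.91 in WT DCs, and Traf6, a ubiquitin ligase downstream of it, by 0.86 in DKO and by 0.60 in WT DCs. Tlr3, the sensor of double-stranded RNA and itself a cDC1 marker, was lower, at -2.17 in DKO and -2.54 in WT DCs. Ifngr1, a chain of the interferon-gamma receptor, was lower, at -0.85 in DKO and -1.64 in WT DCs. It was also the gene of this list called between the genotypes after CpG, at 0.97 for DKO minus WT (adjusted p = 0.0225, limma). No gene of the list was called there when WT CpG 1 or 2, DKO CpG 2 or 3, or either DKO unstimulated array was left out, and 2 were when DKO CpG 1 was. Tlr9 itself was not called, at 0.29 in DKO (adjusted p = 0.375) and 0.43 in WT DCs (adjusted p = 0.138, limma). The WT count of 11 came to 7 when WT unstimulated 1 was left out and to 6 when WT unstimulated 2 was, and the DKO count of 5 came to 3 when DKO unstimulated 2 was left out.

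Among 13 tested DNA-binding partners and coactivators, 1 was higher and none lower after CpG in DKO DCs, and 4 were higher and 1 lower in WT DCs. For these partners and the modulators below, the share called over all tested genes was 10.3% in DKO and 21.6% in WT DCs. Batf, which forms complexes with IRF4 and IRF8, rose by 2.12 in DKO and by 2.41 in WT DCs. In WT DCs Stat2, the partner of IRF9 in ISGF3, rose by 1.602, Batf3 by 0.61 and Ikzf1, a lymphoid factor that can bind DNA with IRF4, by 0.55. The lower gene, named after its values were seen, was Jun, at -0.36. Of 9 tested modulators, Oasl1 was higher in both genotypes and 3 were lower in WT DCs. These were Irf2bp2, a corepressor that binds IRF2, at -0.60, Foxo3, which restrains Irf7 transcription in mice, at -0.67, and Eif4ebp2, which holds back translation of Irf7 mRNA in mice, at -0.62. Of the WT counts, the 5 partners came to 2 when WT unstimulated 2 or WT CpG 3 was left out and to 3 when WT unstimulated 1 or WT CpG 1 was, and the 4 modulators came to 1 when WT unstimulated 2 was left out. The DKO count of 1 partner came to 2 when DKO unstimulated 1, DKO CpG 2 or DKO CpG 3 was left out, and that of 1 modulator came to 2 when WT CpG 3 was. None of these partners or modulators was called for DKO minus WT after CpG in limma, although 1 modulator was called when DKO CpG 1 was left out. An unadjusted p under 0.05 was found for 1 of 13 partners and 3 of 9 modulators, against 1918 of all 13371 tested genes.

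The interferons themselves were mostly at low values, with 9 of 18 measured genes passing the filter. Ifnb1, the interferon-beta gene that IRF3 and IRF7 switch on, was the 1 gene called, at 1.31 in WT DCs (adjusted p = 0.0405, limma), and it was not called in DKO DCs, at 1.06 (adjusted p = 0.126). It measured 5.597, 5.07 and 4.31 on the DKO CpG arrays, against 3.90 and 3.96 on the DKO unstimulated arrays, and 5.87, 5.74 and 4.55 on the WT CpG arrays, against 4.16 and 3.98 on the WT unstimulated arrays. Ifnb1 was above the array median only on 3 CpG arrays, DKO CpG 1, WT CpG 1 and WT CpG 2, so it entered the test through the groups where it is high, and the call supports nothing by itself. The count in WT DCs was 0 to 2 when single arrays were left out. Over all tested genes, the share called in either direction was 21.6% in WT and 10.3% in DKO DCs.

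The genes most like each IRF over the 10 arrays are given by Pearson's r as a description, since the arrays share the same 4 groups. Irf7 ran closest to Pml, Cmpk2 and Znfx1 (r = 0.99 for each), and Irf9 to Xaf1, Oas1b and Oas2 (0.99 for each). Irf1 came closest to Tmem200b (0.97), Heatr6 (0.96) and Chmp4b (0.96), and Irf2 to Phf11 (0.97), Tmem184b (0.96) and Ogfrl1 (0.96). Irf8 was closest to Vsir, Fahd1 and Agfg2 (0.98 for each). Irf4 had Rnd3 (0.92), Celf1 (0.92) and Mettl15 (0.91), and Irf3 had Alg9 (0.91), Tardbp (0.91) and Glrx2 (0.90), the lowest likeness of the 7.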

How the data were processed

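Total RNA of 10 samples was measured on Mouse Gene 2.0 ST arrays of Affymetrix, 1 array per sample. The deposited values are log2 intensities, for which the submitters' processing notes name RMA and Affymetrix Expression Console. RMA subtracts background, brings the arrays to 1 shared distribution and condenses the probes of each probe set. The sources used here give no version, no genome build and no word on whether the arrays were normalised together. Depth has no meaning for arrays, and the number of arrays limits the precision. At equal rank, values of different arrays were at most 0.24 apart.

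The table held 41345 probe sets: 23521 with 1 gene symbol, 1814 with several and 16010 with none. Of those with 1 symbol, 23328 matched RefSeq (GRCm38.p6) by gene identifier. A gene was tested where it exceeded the array median over all probe sets on at least 2 of the 10 arrays. The model, a mean for each of the 4 groups over all 10 arrays, was fitted in limma 3.58.1 under R 4.3.3 (lmFit and eBayes, no trend, not robust). It had 6 residual and 4.49 prior degrees of freedom. Two-sided p-values were adjusted over the 13371 tested genes (Benjamini-Hochberg), and genes with an adjusted p under 0.05 were called. The median difference over all tested genes was -0.037 for the CpG effect in DKO, -0.039 for that in WT and 0.015 for DKO minus WT after CpG. The comparisons share arrays and are not independent of each other.

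The members, gene lists and tests were chosen with earlier results of these data known. Named genes are the members, C3ar1 and C5ar1, up to 4 called genes with the smallest p per pathway list and comparison, the 3 genes most correlated with each member, and cell type markers; Tlr9 is named outside that rule. Predicted genes, clone names and small RNAs were left out of the most correlated genes. Gene sets were only counted, not tested. Replicate numbers follow the order of deposition and do not pair samples. Alternatives covered the probe set per gene, the filter, the variance model, quantile normalisation, the title series, the arrays in the fit, the arrays with Y-linked signal and each array left out. The counts for the pathway lists under these alternatives were added after the data were seen. The procedure was tested on simulated data. Python 3.11.15 with matplotlib 3.10.9 drew the figures.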

Additional observations from a re-analysis of the deposited data

How the results depend on the processing

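No paired analysis was possible because the labels give no replicate numbers shared between the groups. Of 658 member values under the alternatives, 611 kept their direction and side of the threshold, 21 turned direction, 22 lost a call and 4 gained one, and 18 of 35 member results did not change under any alternative. The count of called IRF genes for CpG in WT, 4, ranged from 2 to 4 when single arrays were left out: Irf7 (1.76, adjusted p = 0.0624) and Irf9 (0.71, adjusted p = 0.0839) lost their calls without WT unstimulated 2. For CpG in DKO the count of 3 was 1 among title numbers under 20, 0 with only the arrays of that contrast in the fit, where fewer arrays estimate the spread, and 1 to 3 when single arrays were left out. No IRF gene was called in the other comparisons under any alternative run. For DKO minus WT after CpG, without the arrays with Y-linked signal Irf3 turned to 0.077 and Irf8 to -0.048. For DKO minus WT without stimulation, title numbers under 20 alone turned Irf1 to 0.11, Irf4 to -0.060, Irf7 to 0.014 and Irf9 to -0.091, and the title series as a block turned Irf9 to -0.094. Leaving out single arrays gave ranges that cross 0 for Irf4 in CpG in WT (-0.30 to 0.067), Irf2 in CpG in DKO (-0.091 to 0.25), Irf3 (-0.27 to 0.043) and Irf8 (-0.0032 to 0.13) in DKO minus WT after CpG, Irf1 (-0.32 to 0.14), Irf4 (-0.060 to 0.70), Irf7 (-0.31 to 0.014) and Irf9 (-0.091 to 0.10) without stimulation, and Irf1 in the difference of the CpG effects (-0.43 to 0.023). The cause of these shifts was not tested. Over all genes, the number called for CpG in WT, 2885, was 1277 to 3226 without single arrays, for CpG in DKO, 1377, it was 423 to 1909, and for DKO minus WT after CpG, 16, it was 2 to 267.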
